A study of Mus musculus with 21 samples.

Results

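The report covers 34 maternal genes of a set named as oocyte-restricted. They were followed by RNA-seq through 12 h of maturation of mouse cumulus-oocyte complexes (COCs). The part of each gene's RNA that came from the oocyte was not measured, for Dnmt1 and Uchl1 among others. A COC is an oocyte with its surrounding cumulus granulosa cells. The genes were chosen by name as known oocyte genes, with earlier results of these data known. All 34 were found among the 56980 genes of the count table. The 33 that passed the filter on low counts are among 18192 genes tested. Gdf3, a ligand of the TGF-beta family, did not pass, with 27 counts over all libraries and 0 to 6 in any one. COCs from ovaries of wild-type mice were treated during in vitro maturation with 10 µM of a proprotein convertase inhibitor (PCI) for 4, 8 or 12 h, or with the solvent DMSO (CTL) for 4, 8 or 12 h. Untreated COCs at 0 h (START) were the baseline. The medium of all cultured COCs held 5% serum and epidermal growth factor. Each of the 7 groups had 3 libraries that the labels call biological replicates, 21 in all. The sources used here give no strain, age, number of mice or COCs behind a library, or name of the inhibitor, so p-values measure the spread between these libraries. The study asks whether the convertases, enzymes that cut precursor proteins into mature forms, act on cumulus cells and their matrix through GDF-9, a growth factor the oocyte secretes.

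A growing mouse oocyte makes and stores messenger RNA for the egg and early embryo, and transcription stops before it resumes meiosis. During meiotic maturation many stored RNAs lose their poly(A) tails and are degraded. Others gain tails and are translated, often by way of a cytoplasmic polyadenylation element near the 3′ end. The libraries here were poly(A)-selected. A lower value can therefore be less RNA or a shorter tail, and these cannot be told apart. Nor can fewer cells of a type and less RNA per cell be told apart in such bulk samples.

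The 3′ ends of transcripts carry the elements named above, so short stretches are shown for some of the genes whose levels are compared below. No stated rule set which genes are shown. Dnmt1, Obox1 and Ddx4 also hold the polyadenylation element and are not shown. They come from GENCODE M21 transcripts on GRCm38, 1 transcript per gene. Capitals mark the poly(A) signal hexamers AATAAA and ATTAAA or the polyadenylation element TTTTAT, read on the transcript strand only. H1f8 (chr6:115950157-115950186, plus strand), Rfpl4 (chr7:5109910-5109939, minus strand), Omt2a (chr9:78312018-78312047, minus strand) and Nlrp4f (chr13:65177134-65177163, minus strand) hold the element. Npm2 (chr14:70647316-70647345, minus strand), Padi6 (chr4:140727373-140727402, minus strand), Nlrp2 (chr7:5298564-5298593, minus strand), Oas1c (chr5:120800221-120800250, minus strand) and Oas1d (chr5:120921619-120921648, plus strand) hold a hexamer without the element in their last 100 bases.
H1f8: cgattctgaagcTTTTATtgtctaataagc
Rfpl4: gaatgctttcctTTTTATttgctataatat
Omt2a: tggggttttaacggTTTTATAATAAATAAA
Nlrp4f: aattgctgctgttttgtgTTTTATATTAAA
Npm2: cccagcaagctcgcctagggccacAATAAA
Padi6: atgtaaacaaattgccatagagccAATAAA
Nlrp2: attcgtatcactggtatattggggAATAAA
Oas1c: tgagggtgagatttgaagcactgaATTAAA
Oas1d: ctaaATTAAAgcaaaacgcattgaATTAAA

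Of the 34 genes, 31 had an annotated 3′ untranslated region long enough to search; those of Zp1, Zp3 and Zar1l were under 40 bases. A hexamer lay in the last 40 bases of 27, against 77% of 14477 tested genes. TTTTAT or TTTTAAT lay in the last 100 bases of 7, against 19% of those genes. The 7 were H1f8, Rfpl4, Omt2a, Nlrp4f, Dnmt1, Obox1 and Ddx4. In Omt2a and Nlrp4f the element adjoins the hexamer without sharing a base. These matches describe the annotated ends only, and the ends used in these COCs were not measured.

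On mm39 the genes lie on 11 chromosomes, 8 of them on chromosome 7 and 7 on chromosome 5. The Nlrp genes Nlrp2 (chr7:5301546-5354034, minus strand), Nlrp5, Nlrp9b (chr7:19725390-19807231, plus strand) and Nlrp14 are among those on chromosome 7. Oas1c (chr5:120938259-120950579, minus strand) and Oas1d (chr5:121052599-121059715, plus strand) lie near each other. The positions are of whole genes, as the deposited table gives them. The gene spans of 11 members overlap another annotated gene. Npm2 (chr14:70884742-70896684, minus strand) shares 4999 bases with Xpo7 on its own strand, and Obox1 shares 9598 bases with Obox2 on its own strand. Counts of genes with close copies (Nlrp4f, Nlrp9b, Obox1, Obox5, Oas1c, Oas1d and Omt2a) and of overlapping genes are uncertain to the extent that reads fitting more than 1 gene were shared or dropped.

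The level of the whole set differed among replicates of the same group, in START before any culture and also in PCI at 4 h. The 34 genes took 2.70, 1.80 and 0.653% of all counts in the START libraries, and 1.12, 2.57 and 0.771% in PCI libraries at 4 h. The first START library thus held about 4 times the share of the last, and START and PCI at 4 h overlap every group at 4 and 8 h. In log2 CPM (counts scaled to a common library total with TMM factors, edgeR's correction for composition), the median member had an SD of 0.998 in START and 0.89 in PCI at 4 h, and of 0.344 to 0.484 in the other groups. Relative to the median member of the same library, the median SD was 0.106 in START and 0.129 in PCI at 4 h. Members within a START library therefore moved up or down together. The 13 cumulus and granulosa markers, all past the filter, ran in the opposite order in START, with 6031, 9392 and 13980 summed CPM in replicates 1, 2 and 3. In PCI at 4 h they summed to 8650, 4671 and 10390 CPM. A list of 29 other oocyte genes, which shares no gene with the 34, summed to 15470, 9295 and 3795 CPM in START. Markers of theca, stroma, endothelium, leukocytes and red cells each summed to at most 106 CPM in any library. Whether these differences are of cell content was not tested, nor was their part in the results below. The comparisons of CTL with START are also given scaled to the other oocyte genes.

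**Figure D1:**
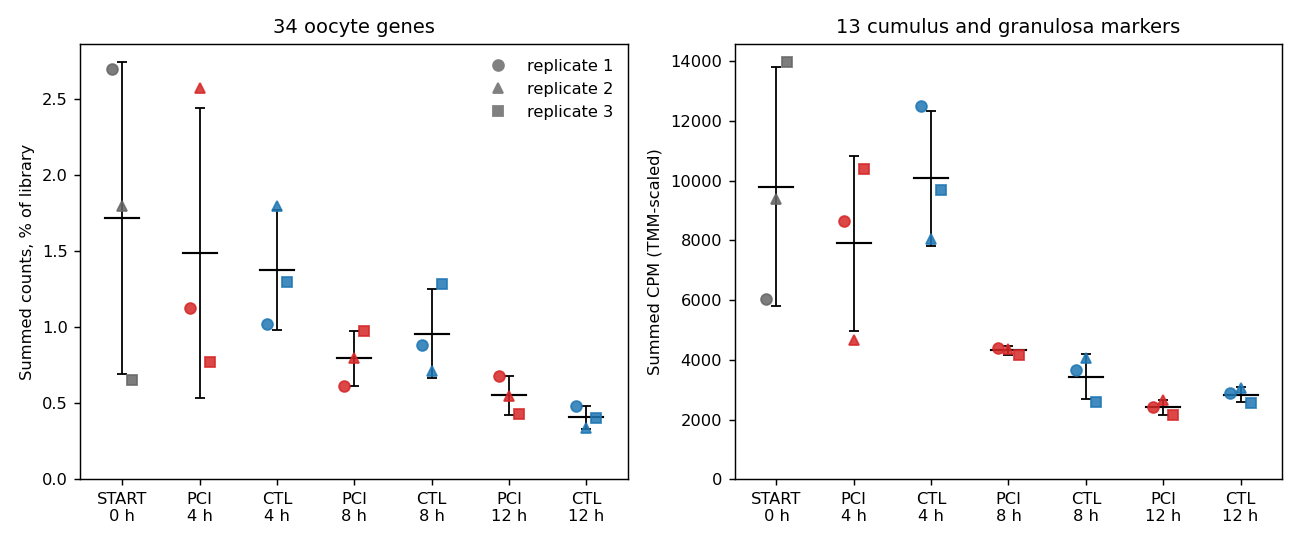
Left, the share of each library's counts taken by the 34 oocyte genes (%, linear axis from 0); right, the summed CPM of 13 cumulus and granulosa markers, by group. Points are libraries, horizontal lines are group means and bars are SD (n = 3). The START shares run between 0.653 and 2.70%, and the START library with the highest oocyte share has the lowest marker sum.

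At 4 h no member was called. CTL libraries at 4 h had 1.02, 1.80 and 1.30% of counts in the 34 genes, inside the range of START. edgeR called 0 of 33 members in CTL at 4 h against START, 0 had an unadjusted p under 0.05, and DESeq2 called 0, where 31.5% of all genes tested were called. The median log2 fold change of members was -0.16, and of all genes -0.05. Fold changes of members lay between -0.37 (Nlrp5) and 1.25 (Sohlh1). The median standard error (SE) was 0.458, so only changes well above this size could have been called at this replication.

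By 12 h most members were far lower, and a minority stood close to their START level. In CTL at 12 h the 34 genes took 0.484, 0.337 and 0.402% of counts, all below the lowest START library. Of the 33 members, edgeR called 24 lower and 0 higher in CTL at 12 h against START, where 51% of all genes were called, 26% in the lower direction. DESeq2 called 25. The median log2 fold change was -2.64 for members and -0.06 for all genes. In 13 members the log2 fold change was below -4, a range that held 4.23% of all genes. Another 7 lay between -4 and -2, and 5 between -2 and -1. The remaining 8 lay between -1 and 1, where 57.3% of all genes lay. The cumulus and granulosa markers were lower too, with 2571 to 3045 summed CPM in CTL at 12 h and 6031 to 13980 CPM in START, 7 of 13 called lower and 0 higher, and a median log2 fold change of -1.79. Their part in the members' values was not tested. All 3 CTL libraries at 12 h were below all START libraries for 22 members, where this held for 27% of all genes.

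**Figure D2:**
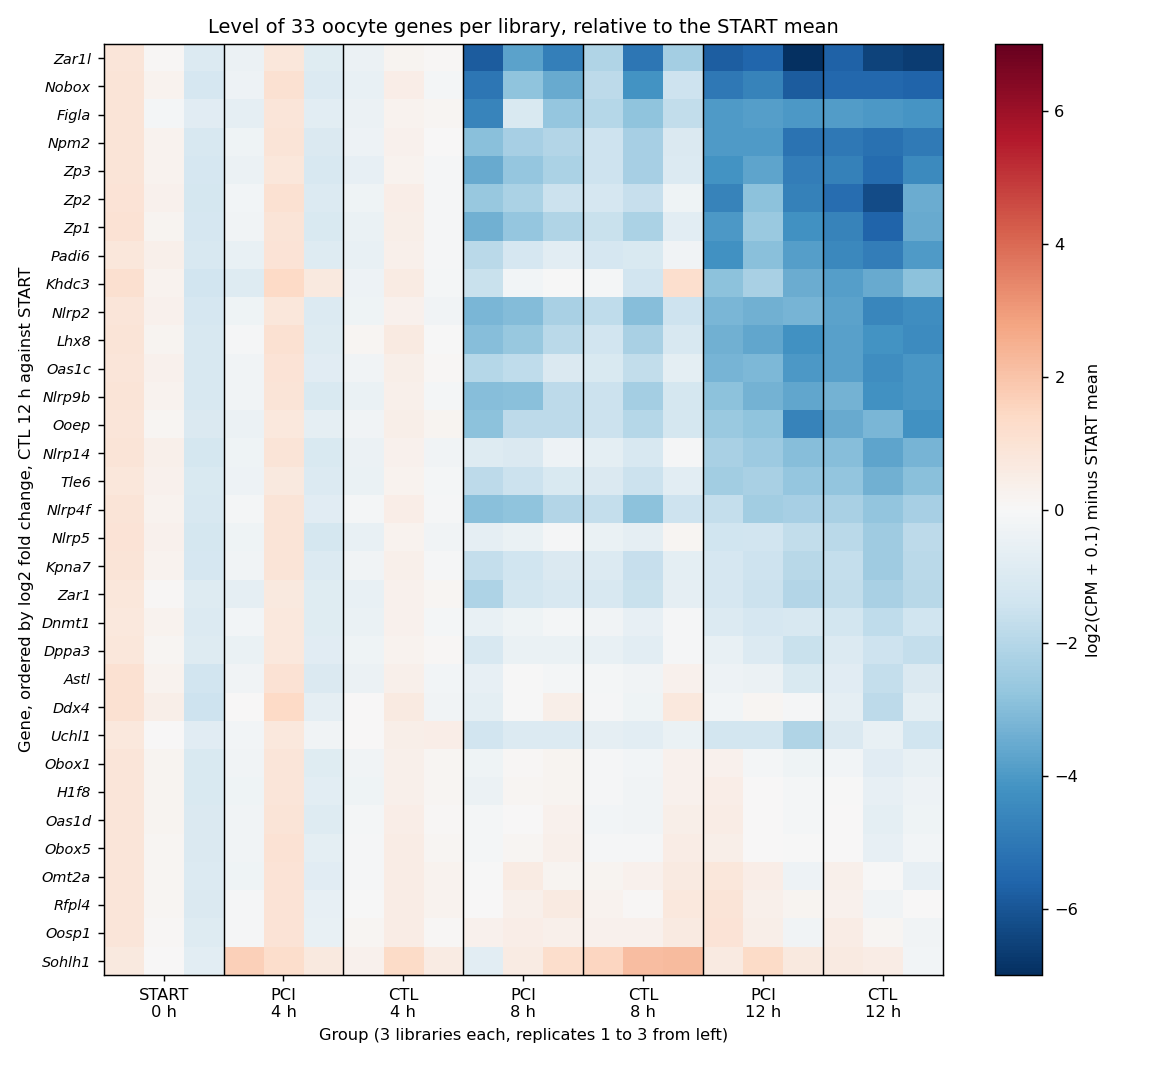
Level of the 33 tested oocyte genes (rows) in each of 21 libraries (columns), as log2(CPM + 0.1) minus the gene's START mean; blue is lower and red is higher. Rows run by log2 fold change in CTL at 12 h against START. The upper 25 rows are shades of blue at 12 h in CTL and, except for Ddx4, in PCI libraries, while the lower 8 are pale. Ddx4 had 17.3 to 22.2 CPM in PCI at 12 h, inside its START range of 7.13 to 41.3 CPM. Red or blue whole columns in START and PCI at 4 h are libraries high or low for nearly all members.

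The zona pellucida genes encode the glycoproteins of the coat around the oocyte, and all 3 fell. Zp3 (chr5:136008953-136017478, plus strand), whose protein is a main structural unit of that coat, had 1115, 705 and 266 CPM in START. It had 450.4, 1032 and 276 CPM in PCI at 4 h, 51.2, 92.2 and 127 CPM at 8 h and 32.5, 46 and 20.9 CPM at 12 h. In CTL it had 393, 702 and 551 CPM at 4 h, 213, 117 and 304 CPM at 8 h and 22.4, 14 and 27.2 CPM at 12 h. Every library at 12 h was below every START library and every 8 h library of its own arm. In CTL at 12 h against START the log2 fold change was -5.04 ± 0.60 (SE; edgeR adjusted p = 1.63e-06). Zp1 had -4.63 ± 0.70 and Zp2 -4.81 ± 0.79, both called.

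The subcortical maternal complex is a protein assembly under the oocyte surface that early cleavage needs, and Nlrp9b and Nlrp14 belong to the same NLRP family as several of its genes. All 7 genes of the complex fell by 12 h in CTL, and so did the other 2 NLRP genes. Nlrp2 had 382, 266 and 93.4 CPM in START. It had 169, 372 and 110.4 CPM in PCI at 4 h, 23.4, 25.9 and 43.7 CPM at 8 h and 23.1, 20.7 and 22.1 CPM at 12 h. The CTL libraries had 169.9, 258 and 181 CPM at 4 h, 61.5, 26.7 and 78.2 CPM at 8 h and 15.5, 8.93 and 10.2 CPM at 12 h. PCI libraries at 12 h lay just under those at 8 h, while all CTL libraries at 12 h were below those at 8 h. Nlrp2 had a log2 fold change of -4.42 ± 0.53 in CTL at 12 h against START (adjusted p = 1.79e-06).

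Nlrp9b had 449, 289.9 and 112 CPM in START. In PCI it had 209.6, 455 and 116 CPM at 4 h, 31.4, 32.4 and 68.7 CPM at 8 h and 33.4, 24.2 and 19.5 CPM at 12 h. In CTL it had 179, 309 and 223 CPM at 4 h, 86.7, 46.1 and 104 CPM at 8 h and 24.1, 12.6 and 14.5 CPM at 12 h. All libraries at 12 h were below all START libraries, with a log2 fold change of -4.05 ± 0.55 in CTL (adjusted p = 7.3e-06). Nlrp14 had -3.54, and the genes of the complex had between -4.60 (Padi6) and -2.30 (Nlrp5, also known as Mater). Ooep, an RNA-binding-domain protein of the complex, had -3.77 and Tle6, its Groucho-related member, had -3.18. Padi6, an arginine deiminase-like protein of the cytoplasmic lattices, and Nlrp4f were chosen for values per library after they were seen, because their courses differed. Khdc3 had 2 to 174 counts per library, so its value of -4.48 ± 0.88 rests on few reads.

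Among the genes of chromatin and DNA methylation, Npm2 fell, and H1f8 was not called with TMM factors. Dppa3 and Dnmt1 fell with TMM factors but not when scaled to the other oocyte genes. Npm2, the nucleoplasmin that unpacks sperm chromatin after fertilization, had 307, 195 and 75.1 CPM in START. PCI libraries had 133, 312 and 81.7 CPM at 4 h, 21.2, 33.4 and 39.5 CPM at 8 h and 10.5, 10.6 and 4.47 CPM at 12 h. CTL libraries had 131, 205 and 169 CPM at 4 h, 59.7, 33.3 and 80.6 CPM at 8 h and 5.08, 4.32 and 5.3 CPM at 12 h. The CTL libraries at 12 h lay close together and far below the lowest START library. The log2 fold change was -5.30 ± 0.57 (adjusted p = 4.87e-07), the smallest p of any member. Dppa3, which protects maternal DNA methylation, had -1.51 and Dnmt1, the maintenance DNA methyltransferase, had -1.62, both called with TMM factors. Scaled to the other oocyte genes both calls ended, with -0.18 for Dppa3 (adjusted p = 0.654) and -0.30 for Dnmt1 (adjusted p = 0.464).

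The oocyte-specific linker histone gene H1f8 (chr6:115921899-115927197, plus strand) took the other course. It had 1812, 1169 and 489 CPM in START. In PCI it had 822, 1816 and 607 CPM at 4 h, 775, 1128 and 1177 CPM at 8 h and 1405, 1047 and 907 CPM at 12 h. In CTL it had 814, 1273 and 1096 CPM at 4 h, 945, 844 and 1231 CPM at 8 h and 1005, 668 and 789 CPM at 12 h. All of these lie inside the START range but for the second PCI library at 4 h, just above it. Its log2 fold change in CTL at 12 h against START was -0.49 ± 0.39 (adjusted p = 0.304), with a 95% interval between -1.31 and 0.32.

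Nobox, Figla and Lhx8, transcription factors that drive follicle formation and oocyte growth, all fell, with log2 fold changes of -5.79, -5.53 and -4.38 in CTL at 12 h against START. Lhx8 (chr3:154011931-154036296, minus strand) had 88.9, 53.2 and 21.8 CPM in START. In PCI it had 43.5, 97.9 and 25.3 CPM at 4 h, 5.94, 7.39 and 12.4 CPM at 8 h and 4.53, 3.69 and 2.37 CPM at 12 h. CTL libraries had 50.6, 72.9 and 46.5 CPM at 4 h, 18.7, 9.5 and 21.8 CPM at 8 h and 3.22, 2.48 and 2.15 CPM at 12 h. All libraries at 12 h were below all libraries at START, 4 h and 8 h. The SE of the change in CTL was 0.55 (adjusted p = 2.9e-06). The homeobox genes Obox1 and Obox5 were not called, at -0.67 ± 0.39 and -0.40 ± 0.39.

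Sohlh1, a factor of early oocyte differentiation, was with TMM factors the single member called higher at any time against START, on very few reads. It had 5, 2 and 0 counts in START. In PCI it had 13, 8 and 5 counts at 4 h, 0, 5 and 6 at 8 h and 5, 9 and 3 at 12 h. In CTL it had 3, 10 and 4 counts at 4 h, 9, 18 and 18 at 8 h and 5, 5 and 1 at 12 h. Only the CTL libraries at 8 h were all above START, with a log2 fold change of 2.76 ± 0.89 (adjusted p = 0.0184). The call was lost in 3 of 6 fits that each left out 1 library, with adjusted p up to 0.0663.

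Zar1 and Zar1l encode related proteins that bind and store maternal RNA, and both fell by 12 h. Zar1l (chr5:150430520-150441629, minus strand) had the most negative change of the set. It had 123, 72.3 and 34.1 CPM in START. With PCI it had 51.2, 116 and 36.8 CPM at 4 h, 1.09, 4.85 and 2.32 CPM at 8 h and 1.12, 1.36 and 0.442 CPM at 12 h. With DMSO alone (CTL) it had 50.4, 77.9 and 71.5 CPM at 4 h, 15.3, 1.88 and 12.8 CPM at 8 h and 1.23, 0.64 and 0.569 CPM at 12 h. The CTL libraries at 8 h disagreed, with replicate 2 at the level of the PCI libraries. The log2 fold change of Zar1l in CTL at 12 h against START was -6.53 ± 0.79 (adjusted p = 2.04e-06), and that of Zar1 was -2.12 ± 0.43. Relative to the other oocyte genes Zar1 had -0.81 ± 0.32 and was not called (adjusted p = 0.0536). Ddx4, the germ cell RNA helicase, had -1.30 ± 0.54 and was not called (adjusted p = 0.0537).

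The neighbours Oas1c and Oas1d belong to the oligoadenylate synthetase family and parted in culture. Oas1c had 434, 294 and 112 CPM in START. In PCI it had 206, 467 and 141 CPM at 4 h, 61.6, 71.9 and 121 CPM at 8 h and 25.5, 27.5 and 15.2 CPM at 12 h. In CTL it had 208, 323 and 254 CPM at 4 h, 116, 74.6 and 154 CPM at 8 h and 17.4, 11.9 and 14.6 CPM at 12 h. All its 12 h libraries were below all others of the same arm and below START. Its log2 fold change in CTL at 12 h against START was -4.26 ± 0.50 (adjusted p = 1.39e-06). Oas1d had 836, 596 and 534 CPM in PCI at 12 h and 598, 364 and 481 CPM in CTL at 12 h, all within the START values of 1058, 663 and 291 CPM. Its log2 fold change in CTL at 12 h was -0.48 ± 0.40 (adjusted p = 0.338).

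Kpna7, the importin alpha of the oocyte and early embryo, fell, and so, with TMM factors, did Uchl1, a deubiquitinating enzyme that is also made in neurons. Kpna7 (chr5:144920329-145020840, minus strand) had 344, 222 and 83 CPM in START. PCI libraries had 154, 347 and 96.1 CPM at 4 h, 57.5, 71.4 and 90.9 CPM at 8 h and 83.1, 67.3 and 47.5 CPM at 12 h. CTL libraries had 157, 239 and 178 CPM at 4 h, 93.9, 60.4 and 116 CPM at 8 h and 57.5, 33.4 and 49.3 CPM at 12 h. All CTL libraries at 12 h were below all START libraries, while in PCI the highest library at 12 h was level with the lowest START library and within the 8 h range. Its log2 fold change in CTL at 12 h against START was -2.21 ± 0.46 (adjusted p = 0.000547), and that of Uchl1 was -1.07 ± 0.33 (adjusted p = 0.0112). The direction of Uchl1 turns with the scaling: relative to the other oocyte genes it had 0.27 ± 0.37 (adjusted p = 0.571). Rfpl4, a RING finger protein of the oocyte ubiquitin pathway, had 601, 414 and 375 CPM in PCI at 12 h and 405, 277 and 329.9 CPM in CTL at 12 h, against 593, 363 and 160.1 CPM in START. Its log2 fold change in CTL at 12 h was -0.14 ± 0.38 (adjusted p = 0.779).

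Astl encodes ovastacin, the cortical granule protease that cuts ZP2 after fertilization. It had 633, 356 and 118 CPM in START. In PCI it had 249.9, 602 and 146 CPM at 4 h, 201, 287 and 271 CPM at 8 h and 233, 224 and 143 CPM at 12 h. In CTL it had 221, 381 and 265 CPM at 4 h, 268, 249 and 374 CPM at 8 h and 175, 94.6 and 146 CPM at 12 h. The lowest START library lay inside the 12 h range. Astl had a log2 fold change of -1.41 ± 0.48 in CTL at 12 h (adjusted p = 0.0204), and without START replicate 1 the adjusted p was 0.235. Scaled to the other oocyte genes its direction turned, at 0.03 ± 0.31 (adjusted p = 0.937). The oocyte-secreted protein gene Oosp1 had 0.01 ± 0.37 and Omt2a had -0.23 ± 0.42.

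**Figure D3:**
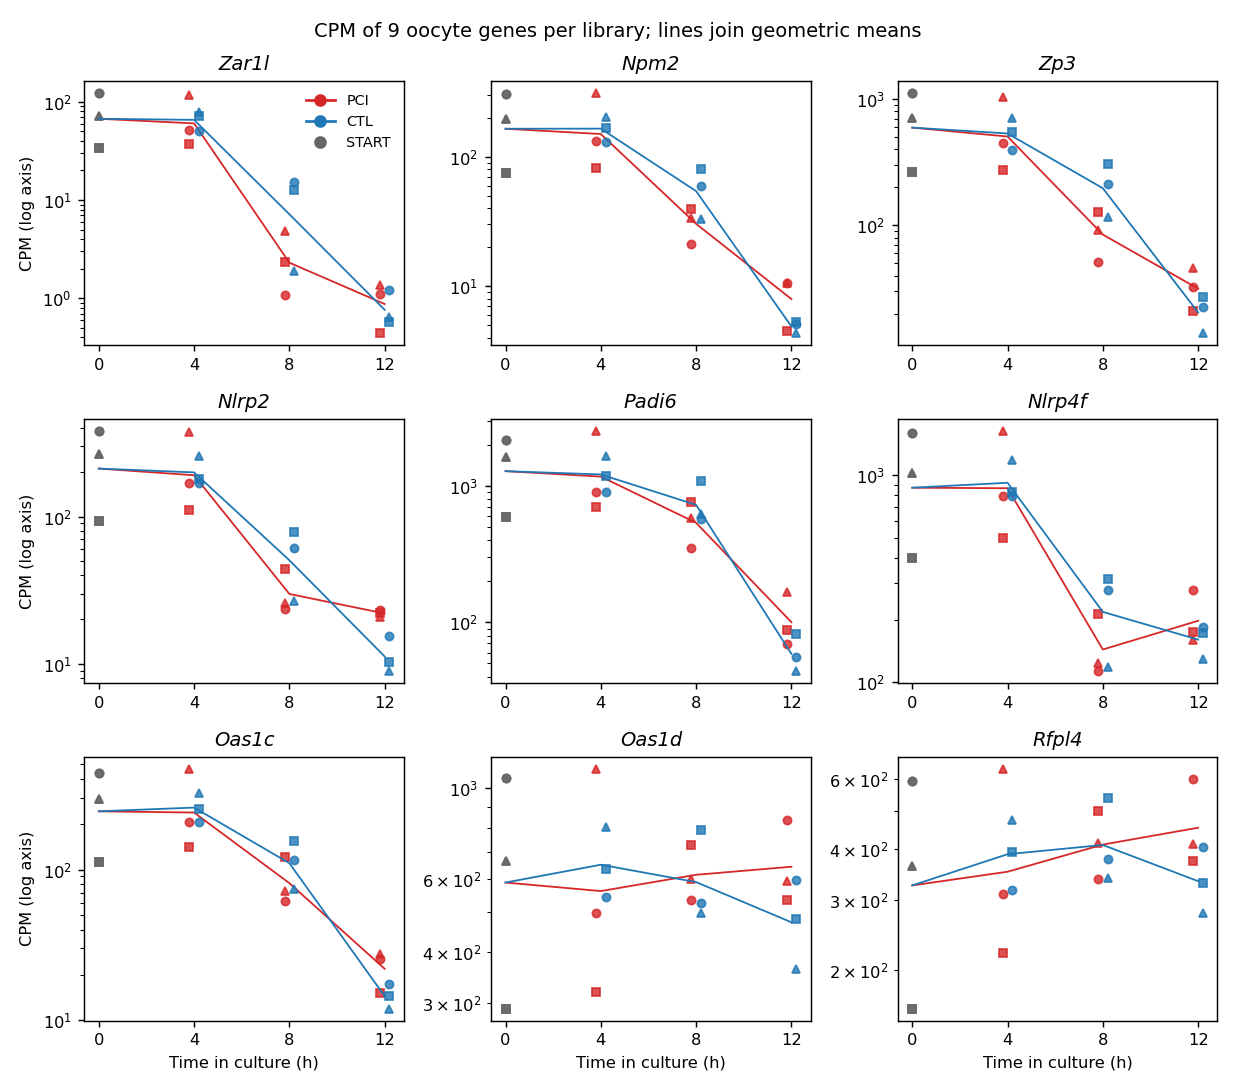
CPM (log axes) of 9 oocyte genes against time in culture (h) in START, PCI and CTL libraries. Points are libraries, shapes are replicate numbers as in the plot of shares, and lines join geometric means. Zar1l, Npm2, Zp3, Nlrp2, Padi6 and Oas1c run down to 12 h, Nlrp4f drops between 4 and 8 h, and Oas1d and Rfpl4 stay within the START range but for PCI libraries at 1112 CPM (Oas1d, 4 h) and at 637 and 601 CPM (Rfpl4, 4 and 12 h).

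The fall was spread unevenly over the culture. At 8 h, 16 members were called in CTL against START, 15 lower and Sohlh1 higher, where 41.3% of all genes were called, 20.6% in the lower direction. The count is not stable: without START replicate 1 it was 4, where 33.5% of all genes were called. Without CTL replicate 2 at 8 h it was 6 (31.4% of all genes). Between 4 and 8 h in CTL 9 members fell, where 23.2% of all genes were called and 11.1% were lower. Between 8 and 12 h 17 fell, where 8.8% of all genes were called and 4.17% were lower. Over all 33 members the median log2 fold change was -0.90 for the earlier step and -1.95 for the later one. With TMM factors the direction from 8 to 12 h was negative for all 33. Scaled to the other oocyte genes it was not. Under that scaling, H1f8 had 0.26 at 8 h and 0.86 at 12 h against START, while Npm2 had -1.29 and -3.89. DESeq2 called 16, 13 and 18 members in these comparisons, and 45.3, 27.8 and 13.2% of all genes. Without CTL replicate 2 at 8 h the earlier step had 2 members called (12.2% of all genes). It had 3 without replicate 2 at 4 h (14.3%) and 4 without replicate 1 at 8 h (16.7%).

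Nlrp4f and Padi6, both of the subcortical maternal complex, are given as 2 different courses. Nlrp4f (chr13:65324925-65353791, minus strand) had 1608, 1029.6 and 399.9 CPM in START. In PCI libraries it stood at 791, 1644 and 499.9 CPM at 4 h, 113, 123 and 213 CPM at 8 h and 278, 159 and 174 CPM at 12 h. It had 797, 1186 and 826 CPM in CTL at 4 h, 277, 119 and 315 CPM at 8 h and 184, 129 and 173 CPM at 12 h. In CTL it fell by 1.98 on the log2 scale between 4 and 8 h (adjusted p = 0.00612) and changed by -0.55 between 8 and 12 h (adjusted p = 0.522). Its levels at 8 and 12 h overlapped in both arms. Padi6 (chr4:140454666-140469954, minus strand) had 2191, 1645 and 588 CPM in START. In PCI libraries it stood at 910.4, 2539.6 and 696 CPM at 4 h, 351, 577 and 764 CPM at 8 h and 69.3, 166 and 87.3 CPM at 12 h. It had 900.2, 1672 and 1192 CPM in CTL at 4 h, 571, 619 and 1086 CPM at 8 h and 55.9, 43.9 and 82.3 CPM at 12 h. At 12 h every library of either arm was below all 8 h libraries. The log2 fold change of Padi6 in CTL was -0.73 in the earlier step (adjusted p = 0.313), and it fell by 3.65 in the later one (adjusted p = 0.000794). The difference between the 2 genes was not tested. The zona genes had -1.38 to -0.97 in the earlier step, none called, and -3.64 to -3.00 in the later one, all called.

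In PCI 17 members fell between 4 and 8 h, where 27.4% of all genes were called and 15.2% were lower. Between 8 and 12 h 3 fell, where 2.37% of all genes were called and 0.995% were lower. Median log2 fold changes of members were -1.29 in the earlier step and -0.77 in the later one. In the earlier PCI step Zp1 had -2.74, Zp2 -2.26 and Zp3 -2.70, all called, and in the later one -0.79, -1.80 and -1.44, not called. The 3 genes that fell between 8 and 12 h were Padi6 (-2.39), Nlrp14 (-1.84) and Oas1c (-1.90). Without PCI replicate 2 at 4 h, the PCI library with the highest oocyte share, the earlier count was 10 (16.5% of all genes). It was also 10 without PCI replicate 1 at 8 h (17.4%). The later count was 0 without PCI replicate 3 at 8 h (0.604% of all genes) or PCI replicate 1 or 3 at 12 h (1.39 and 0.886%). It was 1 without replicate 2 at 8 or 12 h (1.78 and 1.18%). These counts do not show that the timing itself differs between PCI and CTL.

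Where both RNAs come from the oocyte alone, a ratio between 2 genes does not depend on how much of a library comes from oocytes. Such ratios were formed for 3 pairs chosen after the values were seen, so they are given with no test. They are ratios of counts, not corrected for gene length, so that their change can be read but not their size. The ratio of Oas1d to Oas1c was 2.43 ± 0.167 in START (SD, n = 3). In PCI libraries of 4, 8 and 12 h it averaged 2.35 ± 0.0748, 7.67 ± 1.46 and 29.9 ± 7.23. In CTL libraries of the same times it averaged 2.53 ± 0.0697, 5.43 ± 1.1 and 32.6 ± 1.93. The replicates that differed in share at START thus had nearly 1 ratio, and it moved by more than 10-fold in both arms. H1f8 to Npm2 was 6.13 ± 0.333 in START, 6.47 ± 0.846, 33.4 ± 3.34 and 145 ± 53.1 in PCI at 4, 8 and 12 h, and 6.31 ± 0.169, 18.8 ± 5.65 and 167 ± 26.7 in CTL. At 8 h it was 29.8 to 36.5 in the PCI libraries and 15.3 to 25.3 in the CTL libraries, with no overlap. Rfpl4 to Nlrp2 was 1.54 ± 0.174 in START, 1.85 ± 0.145, 13.9 ± 2.36 and 21 ± 4.6 in PCI, and 1.96 ± 0.185, 8.57 ± 3.56 and 29.9 ± 3.22 in CTL. The order of PCI and CTL means was thus reversed between 8 and 12 h for all 3 pairs, but PCI and CTL libraries overlapped at both times except for H1f8 to Npm2 at 8 h and Rfpl4 to Nlrp2 at 12 h. At 4 h the libraries of Oas1d to Oas1c did not overlap either, at 2.27 to 2.41 in PCI and 2.48 to 2.61 in CTL.

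Part of the list of other oocyte genes fell as well. In CTL at 12 h against START 18 of its 29 genes were called lower, with a median log2 fold change of -1.32 over the list. Gtsf1, Ybx2 and Tdrd12, germ cell genes of RNA and transposon control, had the smallest p of the list, with -5.94, -4.22 and -4.11. When libraries were scaled to 28 genes of this list that had at least 10 counts in every library, 19 members were lower, 6 higher and 8 not called in CTL at 12 h. Of all genes, 33.7% were then called, 26.1% higher and 7.55% lower, and the median of all genes moved to 0.89 on the log2 scale. The 6 higher members were Oosp1 (1.34 ± 0.33), Rfpl4 (1.22 ± 0.30), Omt2a (1.12 ± 0.34), Obox5 (0.95 ± 0.30), Oas1d (0.86 ± 0.30) and H1f8 (0.86 ± 0.32). Their directions thus flip with the scaling for all but Oosp1, and only their position near the upper end of the set holds under both. The 19 lower members lay between -5.22 (Zar1l) and -0.83 (Kpna7). Dppa3, Dnmt1, Zar1, Astl and Uchl1, called lower with TMM factors, were not called here. Under the same scaling 9 members were lower and 1 (Sohlh1) higher in CTL at 8 h against START, where 13.8% of all genes were called, and 0 members were called in CTL at 4 h, where 10.1% of all genes were.

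**Figure D4:**
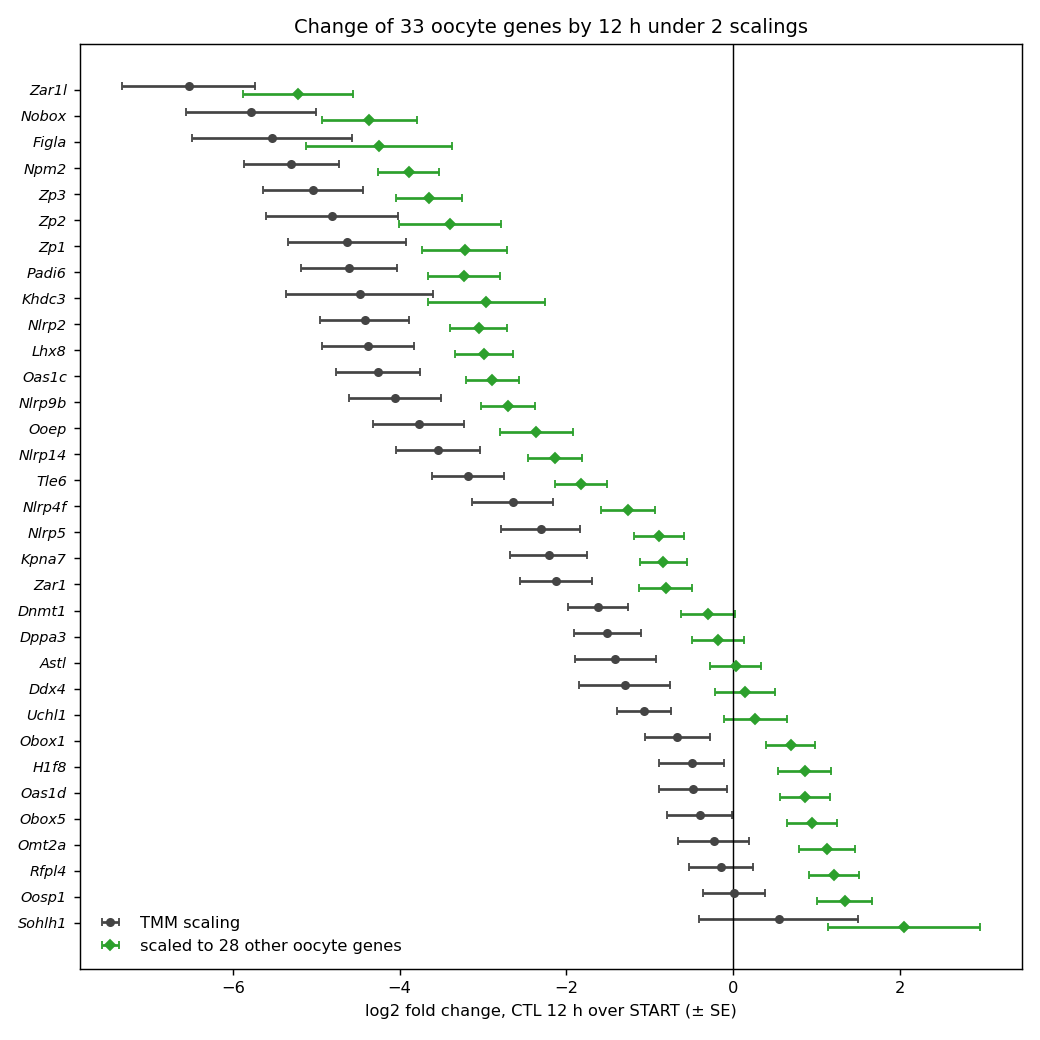
Log2 fold change of each of 33 oocyte genes in CTL at 12 h over START (± SE), with TMM factors (grey circles) and scaled to 28 other oocyte genes (green diamonds). The order of the genes is nearly the same under both, from Zar1l at -6.53 and -5.22 to Sohlh1 at 0.55 and 2.05, and the green points lie to the right of the grey ones.

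In the same 12 h comparison, the 7 members with the polyadenylation element had log2 fold changes with TMM factors of -2.64 (Nlrp4f), -1.62 (Dnmt1), -1.30 (Ddx4), -0.67 (Obox1), -0.49 (H1f8), -0.23 (Omt2a) and -0.14 (Rfpl4). Nlrp4f and Dnmt1 were called. Oas1d, Oosp1 and Obox5, with no match in the last 100 bases, had values as close to 0. The sequences of Npm2, Padi6, Nlrp2 and Oas1c printed above belong to genes with log2 fold changes below -4. With so few genes this is a description of the annotated ends beside the values, and its bearing on the levels was not tested.

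The comparison of PCI with CTL asks whether the inhibitor altered these levels, and no member was called at any time. At 4 h edgeR called 0 of 33 members, 0 had an unadjusted p under 0.05 and DESeq2 called 0, where 0.132% of all genes were called. Members had a median log2 fold change of 0.06, and the values lay between -0.12 and 0.61. The wide spread of PCI libraries at 4 h in oocyte share stands beside this: the 95% interval of Nlrp2, for example, ran between -0.86 and 1.06.

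At 8 h edgeR again called 0 members, 4 had an unadjusted p under 0.05 and DESeq2 called 0, where 3.67% of all genes were called and 2598 of 18192 had an unadjusted p under 0.05. The median log2 fold change of members was -0.41, with 30 of 33 negative, of which 11 turned positive when scaled to the other oocyte genes, against -0.02 for all genes. The 4 were Zar1l at -1.83 ± 0.65 (adjusted p = 0.157), Zp3 at -1.23 ± 0.51 (adjusted p = 0.255), Sohlh1 at -1.96 ± 0.85 (adjusted p = 0.28) and Nobox at -1.46 ± 0.65 (adjusted p = 0.295). Without CTL replicate 2 at 8 h, the library in which Zar1l stood at 1.88 CPM, Zar1l had -2.33 and an adjusted p of 0.0338. Over all 6 fits that each left out 1 library of this comparison, 0 to 1 members were called (1.44 to 3.77% of all genes). PCI and CTL libraries did not overlap for 2 members, Sohlh1 and Uchl1, both lower in PCI, where 11.7% of all genes were lower without overlap. Scaled to the other oocyte genes, the median was -0.17, 0 members were called (0.17% of all genes), and Zar1l had -1.51 ± 0.56 (adjusted p = 0.598).

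At 12 h the direction was the other one. The 34 genes took 0.683, 0.551 and 0.427% of counts in PCI libraries and 0.484, 0.337 and 0.402% in CTL libraries, which overlap. edgeR called 0 of 33 members, 0 had an unadjusted p under 0.05 and DESeq2 called 0, where 1.98% of all genes were called. Members had a median of 0.48 on the log2 scale with 32 of 33 positive, of which 16 turned negative when scaled to the other oocyte genes, against 0.03 for all genes. Uchl1 was the exception at -0.56 ± 0.33, with 86.7, 86.1 and 48.6 CPM in PCI and 105, 143 and 78.4 CPM in CTL. The 6 members higher in all PCI than in all CTL libraries were Nlrp2, Nlrp5, Nlrp14, Tle6, Dnmt1 and Ddx4, where 10% of all genes were. Nlrp2 had 0.93 ± 0.47 with an adjusted p of 0.519, and in a fit of these 2 groups alone it was called at 0.92 with an adjusted p of 0.0391. The other oocyte genes had a median of 0.49 with 28 of 29 positive, and scaled to them the members' median was -0.03. Under that scaling Uchl1 had -1.11 ± 0.38 (adjusted p = 0.396), and 0 members were called (0.209% of all genes).

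**Figure D5:**
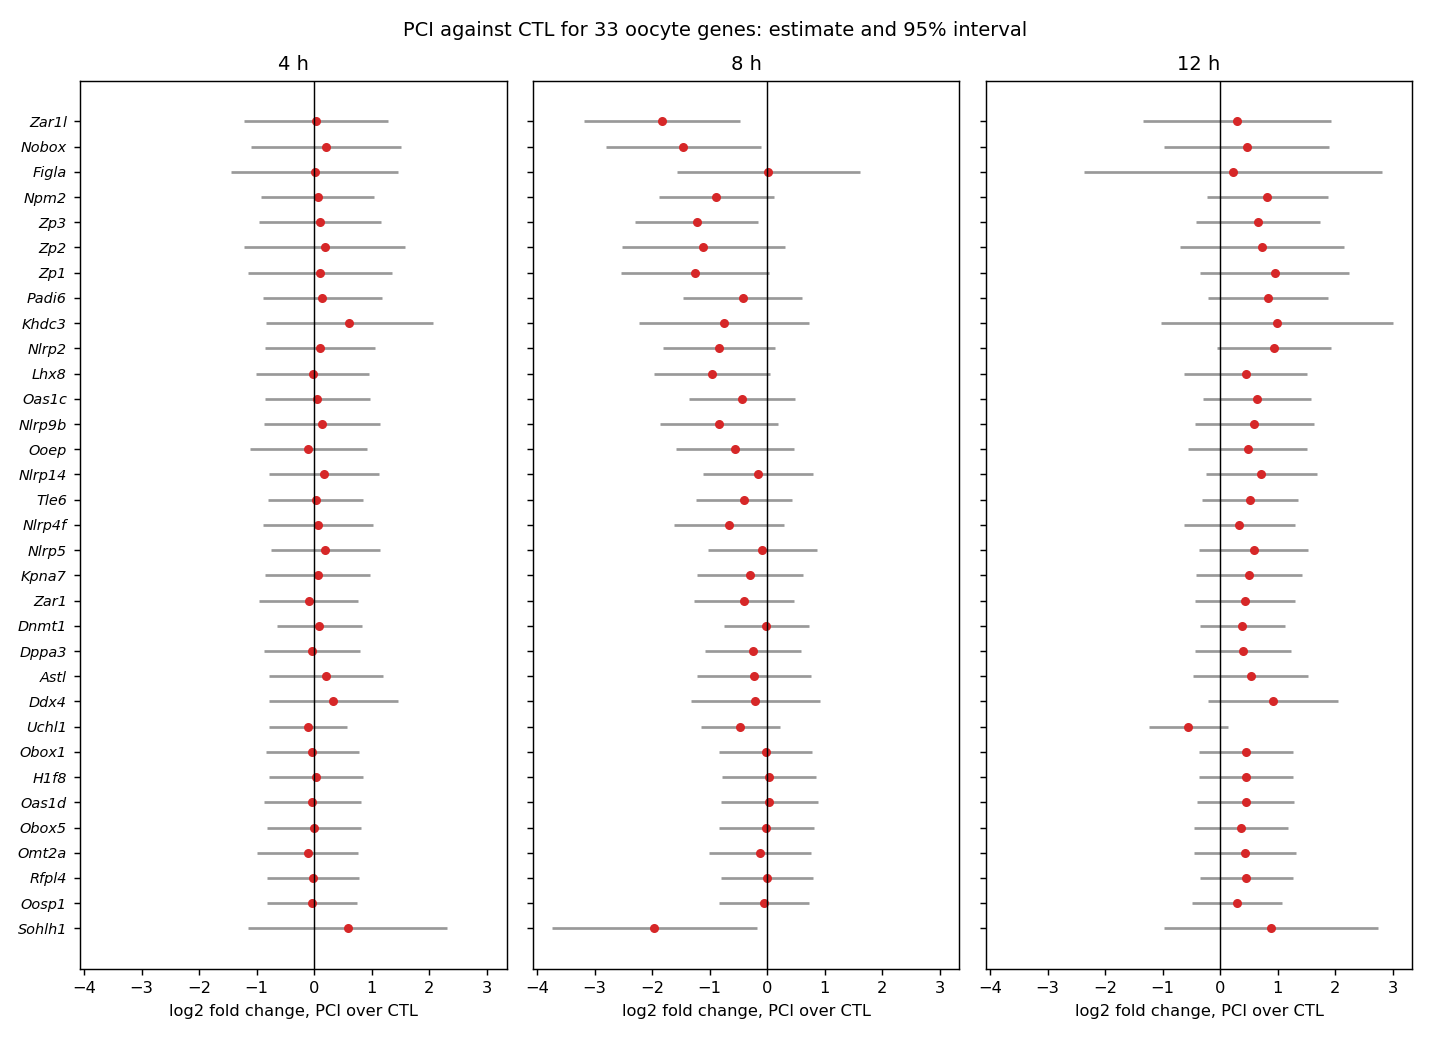
Log2 fold change of PCI over CTL at 4, 8 and 12 h for the 33 tested oocyte genes (red points) with 95% intervals (grey bars, edgeR). Estimates cluster at 0 at 4 h, 30 of 33 lie below 0 at 8 h and 32 of 33 above 0 at 12 h, and none passes the adjusted threshold. Scaled to the other oocyte genes, 11 of the 30 and 16 of the 32 lie on the other side of 0.

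Averaged over the 3 times, the PCI effect had a median of 0.06 over members. edgeR called 0 of 33, 0 had an unadjusted p under 0.05 and DESeq2 called 0, where 6.07% of all genes were called. Uchl1 at -0.38 ± 0.19 came closest (adjusted p = 0.355). For the change of the PCI effect between 4 and 12 h, edgeR called 0 members, 0 had an unadjusted p under 0.05 and DESeq2 called 0, where 0.0715% of all genes were called. The median of that change was 0.47, with a median SE of 0.648. Intervals of single members at 12 h were wide: that of Npm2 ran between -0.24 and 1.87, so that an equal level and a level more than 3-fold higher in PCI both lie within it. Cumulus and granulosa marker sums were 2165 to 2668 CPM in PCI and 2571 to 3045 CPM in CTL at 12 h, and 4154 to 4414 CPM in PCI and 2592 to 4048 CPM in CTL at 8 h. Whether these sums bear on the members' levels was not tested.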

How the data were processed

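RNA-seq was made from 21 libraries of COCs with a stranded poly(A)-selecting kit, per the labels' protocols. The deposited values are raw read counts per gene, which the authors made with cutadapt, STAR and HTSeq on mm39, per the submitters' processing notes. The sources used here give no tool versions, annotation, strand setting or rule for reads fitting more than 1 gene. Totals were 19458618 to 37491828 counts per library. All replicate pairs differed by more than counting noise (chi-square over its degrees of freedom 22.9 to 272).

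Genes were filtered with filterByExpr (18192 of 56980 kept, with at least 99.92% of each library's counts) and scaled with TMM factors in edgeR 4.0.16 (R 4.3.3). One model with 7 group means took all libraries, leaving 14 residual degrees of freedom. Contrasts were tested two-sided with the robust quasi-likelihood F test, with Benjamini-Hochberg adjustment over all genes tested, and a gene is called, or said to have risen or fallen, at an adjusted p under 0.05. SEs are absolute log2 fold changes divided by the root of F. The fit was tested on simulated counts drawn separately for each gene. That test does not cover members moving together within a library. All adjusted p-values are edgeR's unless another tool is named.

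Alternatives were other scalings (library size, RLE, 28 other oocyte genes), no filter, fits of the groups compared alone, DESeq2 1.42.0, a replicate block and leaving out each library. Members and lists were chosen with earlier results of these data known. Given in full are, in each of 9 role groups, the member with the smallest p in CTL at 12 h against START, members called higher against START or in PCI against CTL, and the most negative and most positive change. The 3 other oocyte genes named had the smallest p in that comparison. Genes outside this rule with values per library (H1f8, Oas1d, Rfpl4, Padi6, Nlrp4f and Uchl1) were chosen after their values were seen.

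Replicate numbers recur in all groups. Deviations from group means correlated between same-numbered PCI and CTL libraries at 0.325, 0.524 and 0.143 at 4 h and at 0.167, 0.108 and 0.267 at 8 h. Libraries of different numbers were not correlated, so these values cannot tell whether the numbers pair libraries. The main model leaves the numbers out, and a replicate block is among the alternatives. No label says what a number stands for.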

Additional observations from a re-analysis of the deposited data

How the results depend on the processing

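Leaving out 1 library in turn gave 4 to 18 members for CTL at 8 h against START (16 with all libraries; 31.4 to 43.6% of all genes called in these fits), 21 to 26 for CTL at 12 h against START (24; 42.4 to 53.6%), 2 to 9 for CTL at 8 h against 4 h (9; 12.2 to 18.1%), and 13 to 16 for CTL at 12 h against 8 h (17; 3.21 to 8.24%). It gave 10 to 18 for PCI at 8 h against 4 h (17; 16.5 to 30.6%), 0 to 2 for PCI at 12 h against 8 h (3; 0.604 to 1.78%), and 0 to 1 for PCI against CTL at 8 h (0; 1.44 to 3.77%). It gave 0 throughout for CTL at 4 h against START and for the other PCI against CTL comparisons. Of the calls with all libraries, those kept in every such fit were 3 of 16, 21 of 24, 2 of 9, 12 of 17, 10 of 17 and 0 of 3 in the first 6 comparisons. Scaled to the other oocyte genes, 10 members were called for CTL at 8 h against START (13.8% of all genes), 5 for CTL at 8 h against 4 h (2.09%) and 9 for PCI at 8 h against 4 h (4.28%). Without a filter on low counts, which leaves more genes tested, the values were 9 for CTL at 8 h against START (18.5%), 4 for CTL at 8 h against 4 h (9.36%) and 0 for PCI at 12 h against 8 h (0.982%). Fits of the groups compared alone gave 15 for CTL at 8 h against 4 h (33.4%), 8 for PCI at 12 h against 8 h (4.85%) and 1 (Nlrp2) for PCI against CTL at 12 h (5.14%). DESeq2 gave 5 for PCI at 12 h against 8 h (5.53%). The cause of these shifts was not tested. With library size alone the median of all genes in CTL at 4 h against START moved to -0.17 on the log2 scale. Scaled to the other oocyte genes, the sign of the log2 fold change turned for 3, 7 and 9 of 33 members in CTL at 4, 8 and 12 h against START, and for 14, 11 and 16 in PCI against CTL at 4, 8 and 12 h. Of these, 2 had been called, Uchl1 and Astl in CTL at 12 h, and Astl then had 0.0328. With a replicate block the counts were 0, 16, 24, 10, 16, 17 and 3 over the comparisons across time. Of all genes, 32.3, 41.5, 51.8, 23.6, 8.94, 27.9 and 2.61% were then called. The counts were 0 for PCI against CTL at each time (0.159, 3.85 and 2.15%), so the block moved no count by over 1.5 times. Same-numbered PCI and CTL libraries at 12 h correlated at 0.227, 0.0424 and 0.17, and CTL and START libraries over all times at -0.277 to 0.189. Whether a shared number marks a pairing cannot be told from these values. At 3 libraries a group, the median SE of a member was 0.46 for PCI against CTL at 8 h, and members with few counts (Khdc3, Figla, Sohlh1) are the least certain.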

Other observations

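Khdc3, which encodes a member of the subcortical maternal complex, had 1172 counts over all 21 libraries, whereas its partners in the complex had between 68479 (Ooep) and 488017 (Padi6). The annotated gene Gm20509 overlaps the span of Khdc3 on the same strand over 1969 bases and had 0 counts. The part of this overlap in the low count of Khdc3 was not tested. Figla had 766 counts and Sohlh1 134.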
